A study of Mus musculus with 16 samples.

Results

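The genes described are 7 that are used to recognise regulatory T cells: the transcription factors Foxp3 and Ikzf2 (Helios), the interleukin-2 receptor alpha chain Il2ra (CD25), the TNF receptor family members Tnfrsf18 (GITR), Tnfrsf4 (OX40) and Tnfrsf9 (4-1BB), and the chemokine receptor Ccr8. They were chosen by name, with earlier results of these data known. All 7 were found among the 18635 genes listed in the deposited tables. RNA sequencing was done on 16 samples labelled as mouse tumours, which per the labels formed after a cell line was implanted into syngeneic mice, although the extraction text speaks of cells. The groups are KPC tumours with Trp53bp1 (53BP1) knocked out in the line (KO, n = 5) and KPC tumours of wild-type genotype (WT, n = 5), and ID8 tumours with Trp53bp1 knocked out (KO, n = 3) and ID8 tumours of wild-type genotype (WT, n = 3). KPC is a pancreatic and ID8 an ovarian cancer line. The knockout is in the implanted cells, so T cells of the host carry no knockout that the labels name, and neither the host strain and age nor the number of clones behind each genotype is stated in the labels. Differences between cell lines that arose during cloning therefore cannot be told apart from the knockout. Labels number the samples as biological replicates without saying more, and p-values measure the spread between these samples.

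Regulatory T cells are CD4+ T cells that restrain other immune cells, and many solid tumours contain them. Foxp3 is the transcription factor that sets their identity, and Ikzf2 is a partner factor that many of them also express. Il2ra gives the interleukin-2 receptor its high affinity, and signals pass from this receptor through JAK kinases to STAT5, which in turn acts on Foxp3 and Il2ra. The 3 TNF family receptors are costimulatory receptors that signal through TRAF adaptors to NF-kB, and Ccr8 marks regulatory T cells within tumours. None of the 7 is limited to regulatory T cells: Il2ra and the 3 TNF family receptors also rise on other activated T cells, and Ikzf2 is expressed outside the T cell lineage.

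Libraries held 17902900 to 19727600 counts. Trp53bp1 RNA, the check of the genotype labels, averaged 34.1 ± 3.99 CPM (counts scaled to library size) in KPC KO tumours and 51.5 ± 3.59 CPM in KPC WT tumours (SD, n = 5 each), and the 2 groups did not overlap (exact permutation test, two-sided p = 0.00794, the smallest that 5 against 5 allows). In ID8 it averaged 18.4 CPM in KO tumours and 46.1 CPM in WT tumours (n = 3 each). Which part of the gene was deleted is not stated in the labels. Ptprc (CD45), carried by nearly all white blood cells, had counts in all 10 KPC libraries and 0 counts in all 6 ID8 libraries, as did Cd3e, Cd4 and Cd8a. Here and below, a gene that the deposited counts of a group do not list was given 0 counts in its libraries. The macrophage genes Adgre1, C1qa and C1qb and the endothelial genes Cdh5 and Kdr also had 0 counts in all 6 ID8 libraries. Other genes of these lists had counts there. The 7 macrophage genes summed to 3.73 to 5.75 CPM in ID8 KO and to 10.9 to 12.7 CPM in ID8 WT. The 4 endothelial genes summed to 1.64 to 1.89 CPM in ID8 KO and to 2.21 to 2.66 CPM in ID8 WT. Whether the samples labelled as ID8 tumours held host tissue cannot be told from the labels. Transcripts of host T cells can be followed in KPC alone. KPC libraries also differed in skeletal muscle RNA: the summed level of 10 muscle genes ranged from 9.50 to 7504 CPM in KO tumours and from 618 to 38326 CPM in WT tumours. Acta1, the main actin of skeletal muscle, exceeded 1000 CPM in KO replicates 2 and 5 and in WT replicates 2 and 4.

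Promoter sequence is shown for members that rose past the threshold in KPC KO tumours, as set out below. Of these, it is shown where the window holds the letters of a STAT or NF-kB motif, the factors named above. The windows of Tnfrsf4 and Ccr8 held neither. RefSeq windows of 250 bases before the transcription start (build GRCm38.p6, which differs from the build of the counts) were found for 6 of the 7 members, in 8 windows because Foxp3 and Tnfrsf9 have 2 starts each. Windows were searched on both strands for the STAT motif TTCNNNGAA, the NF-kB consensus motif, the forkhead motif TGTTTAC, the RUNX motif TGTGGT and the TATA box TATAAA. The STAT letters were found at Foxp3 start 2 (chrX:7580233-7580482, + strand), at Tnfrsf18 (29 bases around the match, chr4:156026213-156026241, + strand) and at Tnfrsf9 start 2 (29 bases, chr4:150927853-150927881, + strand). Their first base lies 139, 99 and 136 bases upstream of those starts. Il2ra (chr2:11642542-11642791, + strand) holds the NF-kB consensus in 2 overlapping frames, 201 and 200 bases upstream of its start, and no other motif. Capitals mark the STAT letters or, in Il2ra, the NF-kB letters.
Foxp3 start 2: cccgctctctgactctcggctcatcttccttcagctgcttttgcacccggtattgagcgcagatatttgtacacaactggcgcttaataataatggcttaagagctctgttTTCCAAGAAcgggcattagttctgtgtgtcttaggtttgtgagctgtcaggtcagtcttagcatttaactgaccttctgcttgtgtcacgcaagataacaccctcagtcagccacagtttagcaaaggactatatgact
Tnfrsf9 start 2: caacagctgaTTCCAAGAAacccttcaga
Tnfrsf18: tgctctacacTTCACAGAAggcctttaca
Il2ra: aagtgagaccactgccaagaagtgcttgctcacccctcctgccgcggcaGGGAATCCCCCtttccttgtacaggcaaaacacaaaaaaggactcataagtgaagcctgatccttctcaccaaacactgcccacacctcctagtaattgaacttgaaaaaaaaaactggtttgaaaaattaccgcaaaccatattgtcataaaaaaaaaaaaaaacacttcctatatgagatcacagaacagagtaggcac
Foxp3 start 2 and Tnfrsf9 start 2 carry the same 9 letters, and Tnfrsf18 differs within the free middle positions. Of all 32851 RefSeq windows of this length, 7.02% hold the STAT motif. The NF-kB consensus, held by 3.90% of all windows, was also found at Tnfrsf9 start 2, again in 2 overlapping frames 43 and 42 bases upstream. This consensus was used after a narrower form of it had matched none of the 8 windows. A TATA box lay 32 bases upstream of Foxp3 start 1, a motif in 12.4% of all windows. The forkhead and RUNX motifs, in 3.17% and 14.0% of all windows, were found in none of the 8. A match describes the letters of the window, and binding was not measured.

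In KPC tumours most of the regulatory T cell genes rose in KO tumours relative to WT tumours, by 2.08-fold (Tnfrsf9) to 3.31-fold (Il2ra). All 7 members passed the filter on low counts. Of these, 5 rose past the threshold, an adjusted p under 0.05 in edgeR's quasi-likelihood test with Benjamini-Hochberg adjustment over 14283 genes: Foxp3, Il2ra, Tnfrsf18, Tnfrsf9 and Ccr8. Of all genes tested, 13.7% were called in either direction and 6.67% were called higher. The median log2 fold change (KO over WT) was 1.55 over the 7 members and -0.01 over all genes tested. In bulk RNA, more regulatory T cells and more RNA of these genes per cell cannot be told apart.

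**Figure D1:**
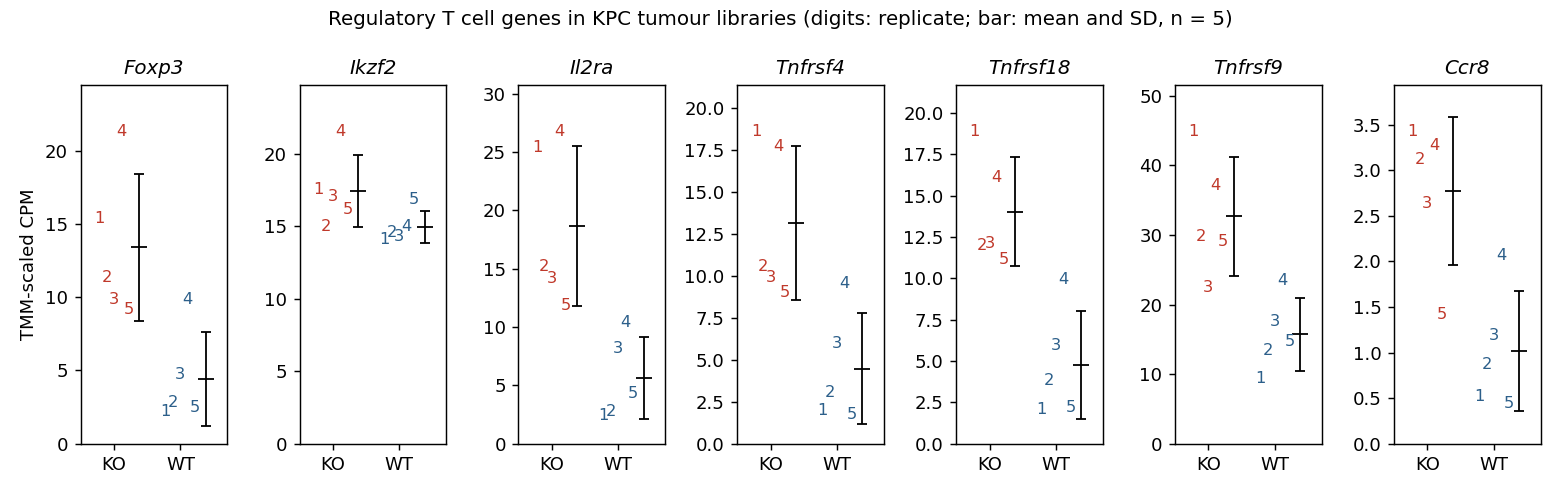
Level of each regulatory T cell gene in the KPC libraries, in CPM scaled by the trimmed mean of M values (TMM), with KO tumours left and WT tumours right in each panel. Digits are replicate numbers and bars are mean and SD (n = 5). WT replicate 4 is the highest WT tumour for every member but Ikzf2, and the groups of Il2ra and Tnfrsf18 do not overlap.

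Among the transcription factors, Foxp3 stood at 15.4, 11.4, 9.86, 21.3 and 9.16 CPM in KO replicates 1 to 5, against 2.17, 2.83, 4.75, 9.86 and 2.46 CPM in WT replicates 1 to 5. KO replicate 5 lay below WT replicate 4 and KO replicate 3 was level with it (191 counts in each), while every other WT tumour was below every KO tumour. The means were 13.4 ± 5.03 CPM in KO and 4.41 ± 3.21 CPM in WT tumours (SD, n = 5 each), 3.03-fold higher in KO (log2 1.60, SE 0.433, adjusted p = 0.0368 by edgeR).

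Ikzf2 did not share this difference. It stood at 17.6, 15.0, 17.0, 21.5 and 16.2 CPM in KO replicates 1 to 5, against 14.1, 14.6, 14.3, 15.0 and 16.8 CPM in WT replicates 1 to 5. The groups overlapped, KO replicate 4 was highest, and the log2 fold change of 0.22 (SE 0.105) missed the threshold (adjusted p = 0.170 by edgeR). Within a genotype Ikzf2 also varied least of the 7: its SD of log2 CPM was 0.135, against 0.379 to 0.659 for the other 6.

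Il2ra, the CD25 chain, had the largest fold change of the 7. Its levels were 25.4, 15.2, 14.1, 26.7 and 11.8 CPM in KO replicates 1 to 5, against 2.43, 2.78, 8.20, 10.4 and 4.32 CPM in WT replicates 1 to 5. Every KO tumour was above every WT tumour. The means of 18.7 ± 6.89 CPM in KO and 5.63 ± 3.53 CPM in WT tumours (SD, n = 5 each) gave a 3.31-fold difference (log2 1.73, SE 0.428, adjusted p = 0.0279 by edgeR).

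Of the TNF family receptors, Tnfrsf18, the GITR receptor, measured 18.9, 12, 12.1, 16.1 and 11.1 CPM in KO replicates 1 to 5, against 2.07, 3.81, 5.93, 9.91 and 2.19 CPM in WT replicates 1 to 5. The groups did not overlap, which with Il2ra makes 2 of 7 members, against 5.34% of all genes tested with every KO tumour above every WT tumour. The difference was 2.93-fold (log2 1.55, SE 0.407, adjusted p = 0.0335 by edgeR). Tnfrsf4, the OX40 receptor, measured 18.6, 10.6, 9.91, 17.7 and 9.0 CPM in KO replicates 1 to 5, against 1.97, 3.05, 5.98, 9.55 and 1.75 CPM in WT replicates 1 to 5. The groups overlapped only through KO replicate 5 and WT replicate 4. Its log2 fold change of 1.56 (SE 0.467) was as large as that of Tnfrsf18 but missed the threshold (adjusted p = 0.0515 by edgeR).

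Tnfrsf9, the 4-1BB receptor, measured 44.8, 29.7, 22.5, 37.2 and 29.1 CPM in KO replicates 1 to 5, against 9.41, 13.5, 17.6, 23.5 and 14.7 CPM in WT replicates 1 to 5. Only KO replicate 3 lay below a WT tumour, WT replicate 4. The difference was 2.08-fold (log2 1.05, SE 0.246), smaller than that of the other 2 receptors but with a smaller error (adjusted p = 0.0228 by edgeR).

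The chemokine receptor Ccr8 was the member with the fewest counts, 259 over the 5 KO libraries and 97 over the 5 WT libraries. It stood at 3.42, 3.12, 2.63, 3.27 and 1.41 CPM in KO replicates 1 to 5, against 0.517, 0.871, 1.19, 2.06 and 0.438 CPM in WT replicates 1 to 5. The 4 highest values were all from KO tumours, and KO replicate 5 lay below WT replicate 4. The fold change was 2.71 (log2 1.44, SE 0.414, adjusted p = 0.0435 by edgeR).

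These calls depended on single libraries. Leaving out WT replicate 4, or all 4 libraries with Acta1 above 1000 CPM, gave 6 of 7 members called, with Tnfrsf4 added. Leaving out WT replicate 2, WT replicate 5, KO replicate 1 or KO replicate 4 left 0 of 7, and leaving out WT replicate 1 left 1. Without WT replicate 3 or KO replicate 3 the count was 2, and without KO replicate 2 or KO replicate 5 it was 3. Every member kept a positive log2 fold change in each of these fits: that of Foxp3 ranged from 1.37 to 2.13 over the 10 fits without 1 library and was 2.33 without the Acta1-rich libraries. With the mean log2 level of the muscle genes as a covariate, 0 of 7 members and 476 of all genes were called. The log2 fold change of Foxp3 was then 1.46 (adjusted p = 0.155 by edgeR). This covariate partly follows genotype. Acta1 was 12.4, 2.12 and 9.77 CPM in KO replicates 1, 3 and 4, and 1178 and 1593 CPM in KO replicates 2 and 5. In WT tumours it was at least 173 CPM.

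General T cell genes moved with the members in the same libraries. The summed level of 13 T cell genes ranged from 100.6 to 192 CPM in KO tumours and from 15.9 to 138 CPM in WT tumours, with Cd3e at 9.68, 4.97, 6.25, 8.66 and 6.54 CPM in KO replicates 1 to 5 and at 0.517, 2.07, 2.17, 7.43 and 0.547 CPM in WT replicates 1 to 5. All 13 had a positive log2 fold change with a median of 1.51, close to the 1.55 of the members, but only 1 of the 13 (Cd2, an adhesion receptor, log2 1.77) passed the test. WT replicate 4 was the highest WT tumour for Cd3e, Cd4, Cd8a and Ptprc as well. Ptprc averaged 163 ± 53.3 CPM in KO and 78.4 ± 38.8 CPM in WT tumours (SD, n = 5 each; log2 1.05, adjusted p = 0.0596 by edgeR).

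**Figure D2:**
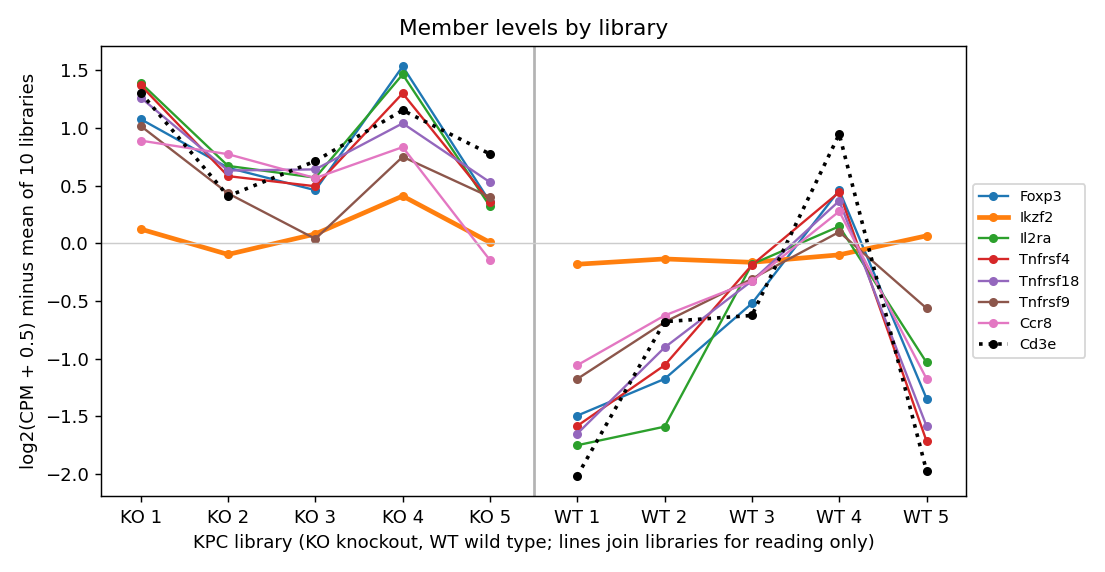
Level of each regulatory T cell gene and of Cd3e in every KPC library, as log2(CPM + 0.5) minus the mean of the 10 libraries, KO left and WT right. For every member but Ikzf2, WT replicate 4 is the highest and WT replicate 1 is at or near the bottom of the WT tumours, as for Cd3e. Tnfrsf9 spans a narrower range than Cd3e, and Ikzf2 stays near 0.

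To set the members against T cell transcripts, counts were scaled to the summed counts of the T cell receptor complex genes Cd3d, Cd3e, Cd3g and Cd247. On this scale Foxp3 had a log2 fold change of -0.24 (SE 0.672), Il2ra of -0.22, Tnfrsf18 of -0.24, Tnfrsf4 of -0.23 and Ccr8 of -0.33, each within 1 SE of 0. These errors belong to this fit, which passes the noise of the receptor complex counts to every gene. With errors of this size the fit could not detect differences like these, of either sign. In a few runs on simulated data its values were lower than those set, by nearly as much as these. So few runs cannot tell a bias from chance, because all genes share the noise of the unit. The fit also gave more false calls there than the threshold allows. Tnfrsf9 had a log2 fold change of -1.10 (adjusted p = 0.100 by edgeR). Ikzf2 alone of the 7 was called, lower by 2.19 on the log2 scale (log2 -2.19, adjusted p = 0.00189 by edgeR), beside 93.6% of all genes called lower and 0.119% called higher on this scale, whose median log2 fold change was -2.40. The log2 fold change of Ikzf2 thus lay near the median of all genes, and those of the other 6 members lay between -1.10 and -0.22.

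The answer depended on the T cell gene used as the unit. Against the receptor complex, Foxp3 had 39.4 ± 11.1 counts per 100 in KO and 47.0 ± 19.5 in WT tumours (SD, n = 5 each; exact permutation test, two-sided p = 0.532). Against Cd4, the coreceptor of helper and regulatory T cells, it had 61.1, 68.3, 64.3, 83.3 and 40.7 counts per 100 in KO replicates 1 to 5, against 43.3, 29.9, 35.8, 33.5 and 45.0 in WT replicates 1 to 5. Only KO replicate 5 lay among the WT tumours. The means of 63.5 ± 15.3 in KO and 37.5 ± 6.46 in WT tumours differed by 0.74 on the log2 scale (exact permutation test, two-sided p = 0.0238, 0.0476 after Benjamini-Hochberg adjustment over 4 such ratios).

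Against Ptprc the ratio was 8.32 ± 1.80 in KO and 5.24 ± 1.05 in WT tumours (SD, n = 5 each; log2 difference 0.66, exact permutation p = 0.0159, adjusted 0.0476). Against Cd8a, the coreceptor of cytotoxic T cells, it was 153 ± 65.9 in KO and 142 ± 87.0 in WT tumours (exact permutation p = 0.619). Cd4 itself, against the receptor complex, had 62.7 ± 12.9 counts per 100 in KO and 122 ± 33.7 in WT tumours, so these denominators did not move together. The 4 ratios were chosen after the values were seen. In edgeR fits scaled to Cd4 or to Ptprc, the log2 fold change of Foxp3 was 0.77 (adjusted p = 0.163) or 0.66 (adjusted p = 0.117), and it was not called.

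**Figure D3:**
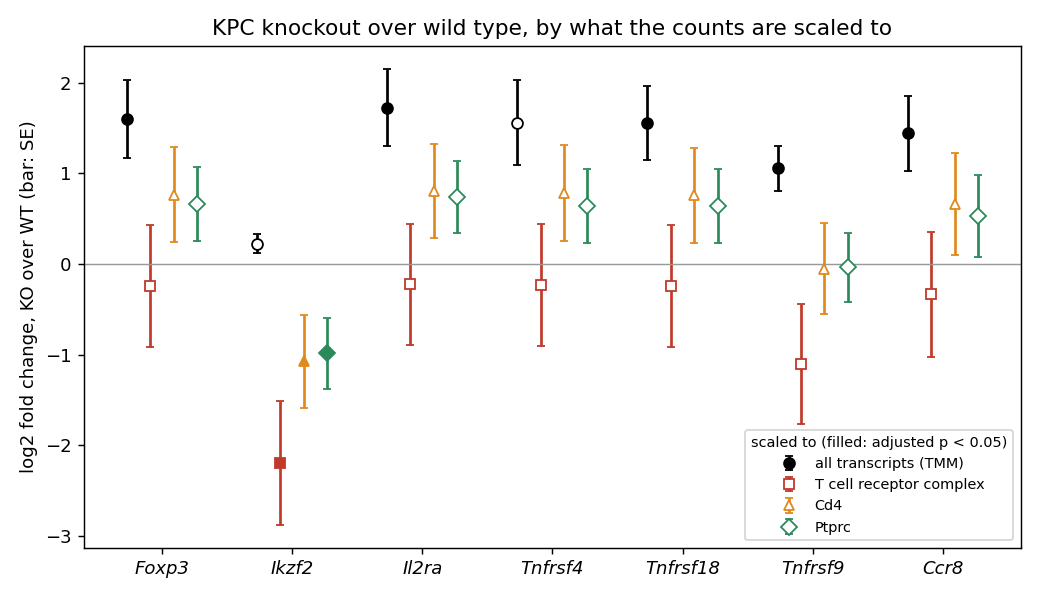
Log2 fold change, KO over WT in KPC, of each regulatory T cell gene with its SE, when counts are scaled to all transcripts, to the T cell receptor complex genes, to Cd4 or to Ptprc. Filled symbols have an adjusted p under 0.05. Foxp3, Il2ra, Tnfrsf4, Tnfrsf18 and Ccr8 lie near 1.5 on the first scale, slightly below 0 on the second and between 0.5 and 0.85 on the last pair.

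Members lay at different distances from each other within a genotype. Likeness was measured as the root mean square difference of log2 deviations from the genotype mean over the 10 KPC libraries, among 3049 genes that varied. This measure depends on how strongly a gene varies as well as on its pattern. Tnfrsf9 (SD 0.379) and Ikzf2 (SD 0.135) varied less than Foxp3 (SD 0.594). Their ranks therefore do not show that their patterns differed from that of Foxp3. The 6 genes nearest to Foxp3 were Acap1 (0.128), Strip2, Ipcef1, Cysltr2, Dock2 and Akna (0.172), of which Dock2 is known for migration of lymphocytes. Tnfrsf4 ranked 23 by this measure (0.204), Tnfrsf18 ranked 52, Il2ra ranked 70, Ccr8 ranked 207 and Tnfrsf9 ranked 412, while Ikzf2 ranked 1367 (0.563). Ranked from Tnfrsf9, the other 6 members stood at 716 to 1072, and ranked from Ikzf2, among 3050 genes, at 688 to 2480. The closest pair of members was Tnfrsf18 and Tnfrsf4 (0.142), neighbouring genes on chromosome 4. All genes share the T cell and muscle content of these libraries, and the values are descriptions.

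Divided by the length of the annotated exons, the TNF family receptors led in KPC. In KO tumours Tnfrsf9 had 12 ± 3.15 CPM per kb, Tnfrsf4 9.64 ± 3.37, Tnfrsf18 9.21 ± 2.17, Il2ra 3.27 ± 1.21, Foxp3 2.93 ± 1.10, Ccr8 2.36 ± 0.695 and Ikzf2 1.5 ± 0.213 (SD, n = 5). In WT tumours Tnfrsf9 had 5.77 ± 1.93 CPM per kb, Tnfrsf4 3.27 ± 2.42, Tnfrsf18 3.14 ± 2.14, Ikzf2 1.29 ± 0.0947, Il2ra 0.986 ± 0.617, Foxp3 0.964 ± 0.700 and Ccr8 0.864 ± 0.560 (SD, n = 5). Neighbours in these orders differed by less than the larger of their SDs, except Tnfrsf18 and Il2ra in KO tumours, Ccr8 and Ikzf2 in KO tumours, and Tnfrsf9 and Tnfrsf4 in WT tumours. Ikzf2, last in KO tumours, stood above Il2ra, Foxp3 and Ccr8 in WT tumours.

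**Figure D4:**
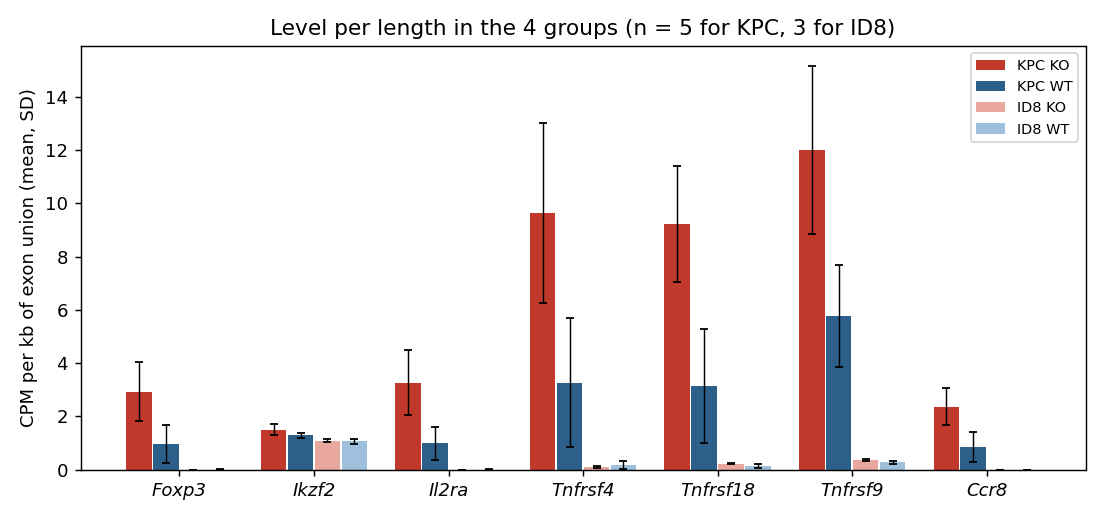
Level of each regulatory T cell gene per kb of annotated exon, as mean and SD, in KPC KO (n = 5), KPC WT (n = 5), ID8 KO (n = 3) and ID8 WT (n = 3) tumours. The TNF family receptors are highest in KPC, and Ikzf2 is the one gene with a clear level in all 4 groups.

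In annotation GENCODE M21, exons of other genes overlap those of 3 members: Flicr, Gm36995, Ccdc22 and Ppp1r3f overlap Foxp3, Gm16008 overlaps Tnfrsf18, and Gm29114 overlaps Ikzf2. The labels do not say whether counting used the strand, so reads from such stretches cannot be told apart.

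The genes that work with the members were read from lists, each set beside the 6.67% of all genes called higher and 7.01% called lower. Of 5 tested ligands, 2 rose, both of them chemokines that bind CCR8. Ccl8 averaged 336 ± 111 CPM in KO and 123 ± 70.6 CPM in WT tumours (SD, n = 5 each; log2 1.45, adjusted p = 0.0334 by edgeR), and Ccl1 averaged 1.74 ± 0.648 CPM in KO and 0.661 ± 0.345 CPM in WT tumours (log2 1.38, adjusted p = 0.0484 by edgeR). The ligand of 4-1BB, Tnfsf9, had a log2 fold change of -0.02 (adjusted p = 0.913 by edgeR), and the GITR ligand Tnfsf18 had a log2 fold change of 0.78 (adjusted p = 0.101 by edgeR). Il2, which encodes interleukin-2, was too low to test, at means of 0.0324 CPM in KO and 0.0109 CPM in WT tumours.

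Of 8 genes of the interleukin-2 receptor and its signalling, 2 rose and none fell. Cish, a feedback inhibitor that STAT5 induces, averaged 56.3 ± 14.0 CPM in KO and 29.4 ± 4.26 CPM in WT tumours with no overlap (SD, n = 5 each; log2 0.94, adjusted p = 0.00770 by edgeR). Stat5a averaged 35.8 ± 3.63 CPM in KO and 26.1 ± 2.09 CPM in WT tumours, also with no overlap (log2 0.45, adjusted p = 0.0106 by edgeR). Jak1 (log2 0.20) and Socs2 (log2 0.33) did not pass. Il2rb, which pairs with Il2ra and was picked out after its values were seen, had a log2 fold change of 1.7 with an adjusted p of 0.0764 by edgeR. It was the largest change of the list, in which Jak3 (log2 0.13) and Stat5b (log2 -0.01) were not called either, and the list median was 0.39. In ID8, Il2rg and Stat5b of this list fell (log2 -1.90 and -0.25), in a line where 25.5% of genes were called lower. Il2rg averaged 0.973 CPM in KO and 3.66 CPM in WT tumours there. Cish and Stat5a were also present in ID8. In ID8, where Ptprc had no counts, Cish averaged 41.6 CPM in KO and 38.9 CPM in WT tumours. Stat5a averaged 23.4 CPM in KO and 21.7 CPM in WT tumours there. Which cells carried their difference in KPC was not tested.

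Of 8 adaptors and NF-kB genes that act below the TNF family receptors, 5 rose and none fell. They were Traf1, an adaptor that these receptors recruit (log2 0.85, adjusted p = 0.0225 by edgeR), Tnfaip3, which encodes the feedback inhibitor A20 (log2 0.62, adjusted p = 0.0171), Traf5, Nfkb2 and Relb. Several of them were also present where Ptprc had 0 counts: Tnfaip3 averaged 51.4 CPM in KO and 22.4 CPM in WT tumours of ID8. In ID8, Tnfaip3, Relb and Nfkb2 also rose (log2 1.2, 0.96 and 0.21), but Traf1 and Traf5 fell (log2 -0.92 and -0.36), in a line where 25.4% of genes were called higher and 25.5% lower.

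Among 16 cofactors of Foxp3 and related factors, 1 rose and 1 fell, with a median log2 fold change of 0.12. Irf4, a factor of activated lymphocytes, averaged 22.1 ± 10.7 CPM in KO and 6.52 ± 3.41 CPM in WT tumours (SD, n = 5 each; log2 1.76, adjusted p = 0.0234 by edgeR). Runx1, a partner of Foxp3 that many other cells express, fell by 0.27 on the log2 scale (log2 -0.27, adjusted p = 0.0296 by edgeR). Cbfb (log2 -0.05) and Nfatc1 (log2 -0.37) did not pass.

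Of 15 tested genes of suppressive function, 1 rose, Gzmb (log2 1.68, adjusted p = 0.0276 by edgeR), which encodes granzyme B and is also made by cytotoxic T cells and NK cells. Tgfb1 (log2 0.12) and Nrp1 (log2 -0.06), both expressed widely, did not pass. Ctla4 and Icos, 2 receptors strongly expressed by regulatory T cells and named after their values were seen, had log2 fold changes of 1.66 and 1.72 with adjusted p-values of 0.0760 and 0.0765 by edgeR. Others of the list lay below 0, among them Tigit (log2 -0.25), Itgb8 (log2 -0.55) and Areg (log2 -0.92), none of them called, and the list median was 0.50. Of 10 tested surface genes of regulatory T cells in tissues, 1 rose (Klrg1, log2 1.66, adjusted p = 0.0115 by edgeR), and the median was 1.34.

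**Figure D5:**
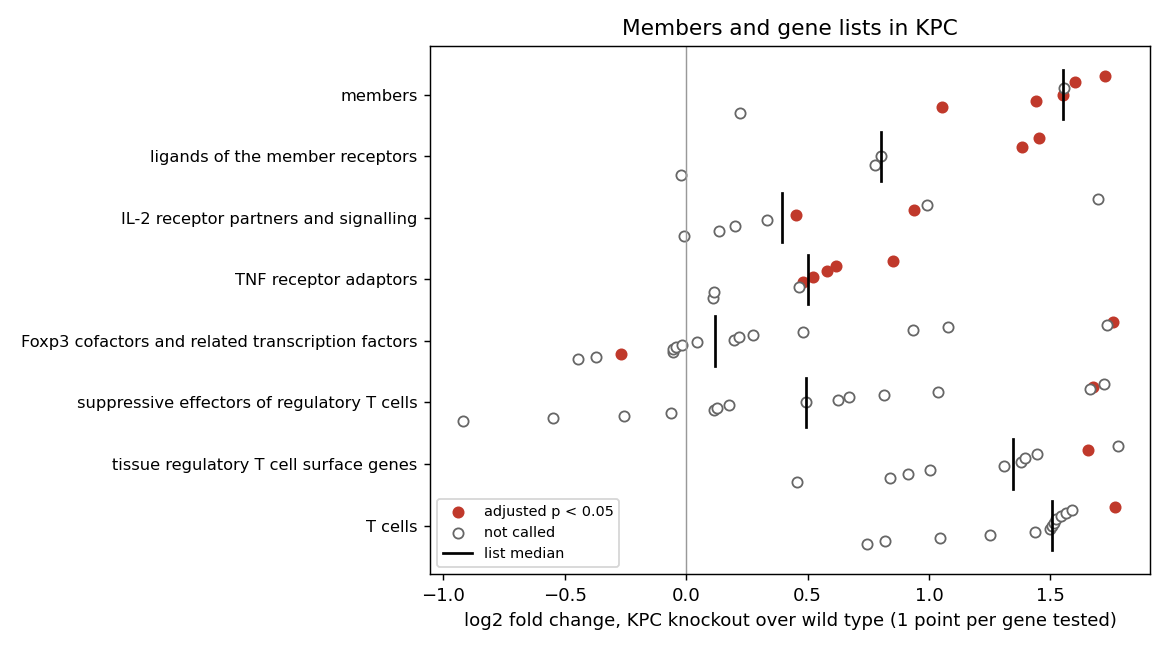
Log2 fold change, KO over WT in KPC, of every tested gene in the regulatory T cell set, in its related lists and in the T cell list, with 1 point per gene. Filled points have an adjusted p under 0.05 and bars are list medians. Members and T cell genes have nearly the same median, 1.55 and 1.51, while cofactors of Foxp3 centre near 0.12.

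Markers of other cell types that may carry these RNAs were measured in the same KPC libraries. Of 5 NK cell genes 1 rose (Klre1), and their summed level ranged from 16.0 to 37.7 CPM in KO and from 2.73 to 22.0 CPM in WT tumours. Of 7 dendritic cell genes, 3 rose (Ccl22, Ccl17 and Xcr1) and 1 fell (Fscn1). Their sums were 270.5 to 562 CPM in KO and 206 to 300 CPM in WT tumours. Fscn1 alone gave 131 to 169 CPM in KO and 172 to 225 CPM in WT tumours. The same list summed to 316 to 345 CPM in ID8 KO and 313 to 327 CPM in ID8 WT, where Ptprc had no counts. These sums are therefore no measure of dendritic cells alone. Of 5 tested genes of group 2 innate lymphoid and mast cells 1 rose (Mcpt4), with sums of 118 to 151 CPM in KO and 39.0 to 86.6 CPM in WT tumours. Of 2 tested B cell genes 1 rose (Cd79a), with sums of 3.06 to 7.88 CPM in KO and 0.931 to 3.20 CPM in WT tumours. Of 7 macrophage genes none was called, with a median log2 fold change of 0.71 and sums of 2766 to 4474 CPM in KO and 1665 to 3629 CPM in WT tumours. None of 4 endothelial genes was called (median log2 0.11, sums of 254 to 359 CPM in KO and 213 to 331 CPM in WT tumours), nor was any of the 10 muscle genes (median log2 -2.05). No gene of these lists was at 0 in every library of either genotype. Their part in the members' differences was not tested.

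In the samples labelled as ID8 tumours, which had 0 counts of Ptprc, Adgre1, C1qa, Cdh5 and Kdr, the set was near 0 apart from Ikzf2. The 0 counts thus covered these markers of leukocytes, macrophages and vessels and were not limited to regulatory T cell genes. Other macrophage and endothelial genes had counts in these samples. Whether these samples held host tissue was not tested. Ccr8 had 0 counts in all 6 libraries, which allows up to 0.153 to 0.158 CPM in a library at 3 counts. Foxp3 and Il2ra each had 0 counts over the KO libraries and 1 count over the WT libraries. Tnfrsf18 had 20 counts in KO and 12 in WT, and Tnfrsf4 had 8 counts in KO and 14 in WT, too few to test. Tnfrsf9 had 1.12, 0.871 and 0.925 CPM in KO replicates 1 to 3, against 0.887, 0.738 and 0.578 CPM in WT replicates 1 to 3. Those groups overlapped, and the log2 fold change of 0.40 (SE 0.282) missed the threshold (adjusted p = 0.249 by edgeR).

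Ikzf2 stood out in ID8, at 12.1, 13.3 and 12.7 CPM in KO replicates 1 to 3, against 11.2, 13.1 and 12.7 CPM in WT replicates 1 to 3. The groups overlapped (log2 0.04, SE 0.0893, adjusted p = 0.730 by edgeR). Its level was thus near that of KPC tumours although the defining T cell markers Cd3d, Cd3e, Cd4 and Cd8a had 0 counts in ID8. Of the 2 members tested in ID8, 0 were called, against 50.8% of all 11933 genes tested there (6067 genes, and 6705 at an unadjusted p under 0.05).

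For the 2 members with counts to test in both lines, the knockout effect in KPC minus that in ID8 was 0.21 on the log2 scale for Ikzf2 (SE 0.157, adjusted p = 0.395 by edgeR) and 0.67 for Tnfrsf9 (SE 0.476, adjusted p = 0.355 by edgeR). Neither was called, against 21.8% of 14921 genes. For the other 5, at or near 0 counts in ID8, a difference between the lines was not detectable.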

How the data were processed

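Per the submitters' processing notes, HISAT and RSEM 1.2.8 were used with build GRCm39 (mm39), and the authors deposited RSEM expected counts per gene, 1 column per library, and their totals show no normalization. These estimated counts were rounded to whole numbers. The groups differ in the genes listed, and a gene not listed for a group was given 0 counts in its libraries. Trimmed-mean (TMM) factors, filterByExpr and edgeR 4.0.16 (R 4.3.3; robust quasi-likelihood fit, Benjamini-Hochberg threshold 0.05 over all genes tested) were run for each line alone, with an interaction fit over all 16 libraries. CPM values carry the TMM factors of their line. Each SE was taken from the F statistic (absolute log2 fold change over root F). The scaled fit used summed T cell receptor complex counts as the library size. That scaling passes its own counting noise to every gene. Each fit was tested in a few runs on data simulated from a fitted edgeR model, with genes drawn independently. There the KPC and interaction fits kept false calls under the threshold, whereas the ID8 fit and, more so, the scaled fit exceeded it. The scaled fit returned log2 values lower than those set, which so few runs cannot tell from chance. KPC libraries differ in muscle and leukocyte content, which many genes share. The runs therefore do not show that false calls are controlled in the KPC data. Lengths are unions of GENCODE M21 exons (GRCm38). Alternatives used DESeq2 1.42.0 and limma 3.58.1.

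All 7 members and the gene lists were chosen with earlier results of these data known. Named genes are the members, up to 2 called genes of largest change and 2 uncalled genes of highest level from each list, marker examples, and the 6 genes nearest to Foxp3; other genes named as the called members of a list were named after their values were seen. No libraries were duplicates. Intervals and the 3-count limit cover counting error only.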

Additional observations from a re-analysis of the deposited data

Results flagged for a closer look

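In 9 of 106 gene and group combinations with 5 KPC libraries, 1 library lay far from the other 4 of its group (a gap over the range above 0.710), where chance gives about 1 in 20. WT replicate 4 was far above the other WT tumours for Cd3d (8.93 CPM), Cd3e (7.43 CPM), Cd8a (14.7 CPM) and the macrophage marker Adgre1 (130 CPM), and it is also the WT tumour with the highest Foxp3. WT replicate 2 stood apart for the muscle genes Acta1 (7583 CPM) and Ckm (5081 CPM). KO replicate 4, the KO tumour with the highest Foxp3, stood apart for the NK cell receptor Ncr1 (3.11 CPM) and for Nfatc1 (70.8 CPM). KO replicate 5 stood apart for the 4-1BB ligand Tnfsf9 (9.42 CPM). No member was among the 9.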

How the results depend on the processing

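All 7 members kept a positive KPC log2 fold change in all 20 alternatives, and ranges were 1.37 to 2.33 for Foxp3 and 0.11 to 0.34 for Ikzf2. The number of members called in KPC was 5 as reported and 4 to 6 under other tools, filters and scalings, but 0 with the muscle covariate and 0 to 6 when 1 library was left out. Genes called in KPC numbered 1953, against 3162 with DESeq2, 3174 with limma-voom, 3524 in a joint fit of both lines, 476 with the muscle covariate and 934 to 3106 without 1 library. ID8 calls fell to 2681 in the joint fit and were 5355 to 5786 without 1 library, with 0 members called in each. Interaction calls rose to 4972 with limma-voom and were 2294 to 3551 without 1 library.

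The labels do not say whether replicate numbers pair samples, and the fits did not pair them. Same-number correlations of deviations in KPC ranged from -0.537 to 0.563. KO replicate 5 and WT replicate 2, both with Acta1 above 1000 CPM, reached 0.697. Tissue content enters these correlations, so they cannot decide on pairing. A replicate block gave 6 members called in KPC, with Tnfrsf4 added, and 1665 genes in all. Relative to the receptor complex, 1 member was called, against 0 with the replicate block, 2 without Acta1-rich libraries and 1 to 2 without 1 library. On that scale signs turned with the 13-gene unit for Foxp3 (0.0330), Il2ra (0.0417), Tnfrsf18 (0.0361) and Tnfrsf4 (0.0573). They turned with Ptprc for Foxp3 (0.66), Il2ra (0.74), Tnfrsf18 (0.64), Tnfrsf4 (0.64) and Ccr8 (0.53), and with Cd4 for the same genes (0.77, 0.80, 0.76, 0.78 and 0.66). Ikzf2 in ID8 ranged from -0.0285 to 0.0807 without 1 library and turned below 0 without WT replicate 1.

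Alternatives for the Foxp3 ratios were added after seeing the data. Foxp3 per Cd4 kept its sign in 11 of 11, with log2 differences of 0.63 to 0.89 and an exact permutation p under 0.05 in 10, and so did Foxp3 per Ptprc (0.56 to 0.77); without Acta1-rich libraries the smallest possible p is 0.1. Foxp3 per Cd8a turned to -0.21 there. The cause of these shifts was not tested. Counts limit Ccr8 and, in ID8, all members but Ikzf2.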
